A study of Mus musculus with 32 samples.

Results

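Pmp22, Prx, Pmp2, Ncmap, Cldn19 and Egr2, genes of peripheral myelin, were followed across the spinal cords of G93A and wildtype mice. They were chosen by name as genes of Schwann cells and nerve root myelin, and are 6 of the 42524 genes in the count table. G93A mice carry a human SOD1 transgene with an amyotrophic lateral sclerosis mutation (B6-Tg(SOD1-G93A)1Gur/J on C57BL/6J), and the wildtype (WT) mice were their littermates, without the transgene. Each genotype was left untreated or given OKN-007, a nitrone compound, in 4 mice per group at each of 2 times, which makes 8 groups and 32 mice. The labels give these times as 90 and 155 days, and the study's methods place the earlier killing a few days later. The 8 groups were therefore WT untreated, WT OKN-007, G93A untreated and G93A OKN-007 at 90 days, and the same 4 at 155 days. The transgene is carried by every cell and its human transcript has no row of its own in the mouse table. The labels do not say which dose the sequenced mice received, and name no sequencing batch. In the study's methods, the cohorts killed near disease onset and at 155 days were given the higher of 2 doses, in drinking water. Polyadenylated RNA from a 25 mg piece of spinal cord was sequenced per mouse, with between 19701722 and 30138257 reads counted on genes. Levels are given in CPM, a gene's count relative to the TMM-scaled library size. A gene with 0 reads in the smallest library could still have been at up to 0.152 CPM (3 reads), a limit for counting error only.

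Schwann cells wrap the axons of nerve roots and peripheral nerves, while oligodendrocytes wrap those inside the cord, so that myelin changes from the central to the peripheral kind where a root joins the cord. Egr2 (also called Krox20) is the zinc finger transcription factor that switches Schwann cells to myelination and keeps them there, and in many other cells it is an immediate early gene that rises briefly after stimulation. Its targets include Pmp22 and Prx. Pmp22 encodes a small 4-pass membrane protein of compact myelin whose gene dosage underlies the common inherited neuropathies. Prx encodes periaxin, which ties the outer Schwann cell membrane to the laminin receptor dystroglycan through Drp2. Pmp2 encodes a fatty acid binding protein of compact myelin, Ncmap a membrane protein of noncompact myelin, and Cldn19 a claudin that forms tight junctions between the turns of the Schwann cell membrane.

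The genes lie on 5 chromosomes (positions from GENCODE M21, build GRCm38). Pmp22 (ENSMUSG00000018217) is at chr11:63128982-63159547 and Prx (ENSMUSG00000053198) at chr7:27499324-27520214, both on the plus strand. Pmp2 (ENSMUSG00000052468) is at chr3:10179851-10183929 and Ncmap (ENSMUSG00000043924) at chr4:135369576-135398227, both on the minus strand. Cldn19 (ENSMUSG00000066058) is at chr4:119255414-119262438 and Egr2 (ENSMUSG00000037868) at chr10:67535475-67542188, both on the plus strand. The antisense gene Gm15541 shares 300 exon bases with Prx, and the antisense gene Gm12927 shares 90 with Cldn19. Gm37389, a protein-coding gene on the same strand, shares 1224 of the 1408 exon bases of Pmp2 and has no row in the count table. How reads in bases shared by these genes were counted is not given in the sources used here, so the low counts of Pmp2 are uncertain. How strand was used in counting is not given in the sources used here, so reads from these antisense partners cannot be told apart from those of Prx and Cldn19.

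Egr2 and Cldn19 are shown with the 250 bases before a transcription start, because Egr2 had the largest change between genotypes at 155 days among these genes and both upstream stretches hold the short core letters of the site that EGR proteins bind, GTGGGCG. The sequences are from RefSeq (GRCm38.p6, plus strand), and capitals mark the match; in Egr2 it is on the opposite strand and reads CGCCCAC.
Cldn19, chr4:119255191-119255440: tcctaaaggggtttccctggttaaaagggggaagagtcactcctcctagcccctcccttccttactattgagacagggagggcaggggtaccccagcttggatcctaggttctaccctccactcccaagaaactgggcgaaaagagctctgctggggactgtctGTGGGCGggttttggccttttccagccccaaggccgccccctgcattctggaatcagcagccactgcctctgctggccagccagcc
Egr2, chr10:67535249-67535498: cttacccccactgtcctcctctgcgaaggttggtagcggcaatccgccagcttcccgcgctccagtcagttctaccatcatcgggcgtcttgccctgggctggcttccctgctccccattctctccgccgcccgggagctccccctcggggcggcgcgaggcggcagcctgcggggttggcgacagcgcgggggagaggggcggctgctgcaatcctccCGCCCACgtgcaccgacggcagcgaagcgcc
The match begins at position -86 from this start in Cldn19, which has a second listed start that shares the same match, and at position -31 in Egr2. The other listed starts of Egr2, further downstream, had no match in their windows. Searched on both strands, these 7 letters were in 7.966% of the 32851 promoter windows of the table, which run from 250 bases before to 50 bases after a start. This share is per window, and a gene with several listed starts has several windows. The longer site GCGTGGGCG was in 0.612% of them and in none of the windows of Pmp22, Prx, Ncmap, Cldn19 or Egr2. A match is a stretch of letters and not a measured binding site.

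Before the groups are compared, 4 libraries have to be set apart. Prx stood at 245 CPM (6575 reads) in WT untreated 90 days replicate 3 and at 42.8 CPM (886 reads) in G93A untreated 90 days replicate 10. It was at 10.9 CPM (304 reads) in WT OKN-007 155 days replicate 6 and at 9.77 CPM (269 reads) in G93A OKN-007 155 days replicate 14. In the other 28 libraries Prx lay between 0.224 and 1.67 CPM, with a median of 0.787 CPM. The 4 libraries were taken as those above 5 CPM of Prx, a limit chosen after these values were seen. The values of Prx, and of genes high with it, with and without these libraries are therefore a description. They come from 4 different groups, 2 of each genotype and 2 of each age, both 90-day ones being untreated and both 155-day ones treated.

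The other myelin genes were high in the 90-day ones of these libraries, and only some of them in the 155-day ones. Pmp22 was at 529 CPM in WT untreated 90 days replicate 3, against 96.4 to 110 CPM in the other 3 mice of that group. Cldn19 was at 32.3 CPM there, against 0.258 to 1.04 CPM, and Egr2 at 8.15 CPM, against 0.147 to 0.222 CPM. Ncmap was at 11.4 CPM, against 2.11 to 2.52 CPM, and Pmp2 at 2.20 CPM, against 0 to 0.160 CPM. All 6 genes were thus above the other 3 mice in this library, and all 6 also were in G93A untreated 90 days replicate 10. Of the 6, 4 were above the others in the WT library at 155 days and 3 in the G93A library, Prx among them in each.

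The rise of each gene over the median of the other 3 mice was set against that of Prx. In the 90-day libraries the rise of Pmp22 was 175% of that of Prx in the WT library and 163% in the G93A library. For Cldn19 these shares were 13.1% and 14.7%, for Ncmap 3.76% and 3.17%, for Egr2 3.26% and 4.38%, and for Pmp2, with few reads, 0.885% and 0.383%. In the 155-day libraries Cldn19 had 11.9% in the WT and 10.6% in the G93A library, while the shares of the others lay further apart. They were 64.9% and 147% for Pmp22, 2.70% and 0.516% for Ncmap, 2.77% and -1.96% for Egr2, and 0.356% and 4.18% for Pmp2. These are descriptions of 4 libraries with no test. At 155 days the rise of Pmp22 itself was 6.67 CPM in the WT library and 12.9 CPM in the G93A library, on a level near 100 CPM, and the G93A library stayed within the range of its group.

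Of 6 other genes of myelinating Schwann cells (Drp2, Gldn, Dhh, Mal, Gjb1 and Pllp), 5 were above the other 3 mice of the group in the WT library at 90 days and 3 in the G93A library, and 2 in each library at 155 days. Their summed level was above the rest of the group in WT untreated 90 days replicate 3, at 1941 CPM against 1493 to 1782 CPM. It was below in G93A untreated 90 days replicate 10, at 1518 CPM against 1613 to 1708 CPM. Most of this sum was Mal, which oligodendrocytes also express, at 1174 CPM against 1275 to 1384 CPM. The sum is therefore not a level of Schwann cells alone. The 8 genes of non-myelinating and repair Schwann cells also summed to less in that G93A library, at 38.2 CPM against 42.7 to 56.4 CPM. Of these 8, however, 4 were above the others there. In WT untreated 90 days replicate 3 they summed to 59.9 CPM against 39.3 to 51.3 CPM (5 of 8 above). At 155 days the sums were 47.8 CPM against 48.3 to 54.9 CPM in the WT library (1 of 8) and 55.9 CPM against 49.5 to 66.2 CPM in the G93A library (2 of 8). Dhh, the hedgehog ligand that Schwann cells make, is named here after its values were seen, as it was above the others in all 4 libraries. It was at 7.56 CPM in the WT library at 90 days, against 0.0368 to 0.148 CPM, and at 1.88 CPM in the G93A library, against 0.129 to 0.310 CPM. At 155 days it was at 0.324 CPM against 0.0776 to 0.212 CPM in the WT library and at 0.618 CPM against 0.203 to 0.448 CPM in the G93A library.

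Markers of other tissues and of cord position in these libraries were as follows, and their part in the levels above was not tested. The summed level of 8 fibroblast and meningeal genes was 172 CPM in WT untreated 90 days replicate 3, against 47.3 to 51.9 CPM in the rest of its group, with all 8 genes above the others. It was 85.2 CPM in G93A untreated 90 days replicate 10 against 44.3 to 49.9 CPM (7 of 8 genes above), 52.5 CPM against 42.2 to 54.7 CPM in the WT library at 155 days (3 of 8) and 70.8 CPM against 53.1 to 57.4 CPM in the G93A library at 155 days (6 of 8). The summed level of 7 sensory ganglion neuron genes was 2.38 CPM in the WT library at 90 days, against 1.67 to 3.16 CPM, and 3.23 CPM in the G93A library, above the 1.07 to 2.67 CPM of its group (3 of 7 genes above). At 155 days it was below the group in both, at 1.08 CPM against 1.52 to 2.39 CPM in the WT library and 3.96 CPM against 4.36 to 5.36 CPM in the G93A library. The 7 central myelin genes of oligodendrocytes summed to 27573 CPM in WT untreated 90 days replicate 3 against 23896 to 26641 CPM in the rest of its group, and lay below or within the range of the group in the other 3 libraries. The 10 caudal Hox genes, of the lower end of the cord, summed to 19.4 CPM in WT untreated 90 days replicate 3, against 65.1 to 98.4 CPM. In G93A untreated 90 days replicate 10 they summed to 80.0 CPM against 31.9 to 64.1 CPM. At 155 days both libraries were within their groups, at 144 CPM against 129 to 173 CPM in WT and 66.2 CPM against 22.8 to 68.6 CPM in G93A.

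**Figure D1:**
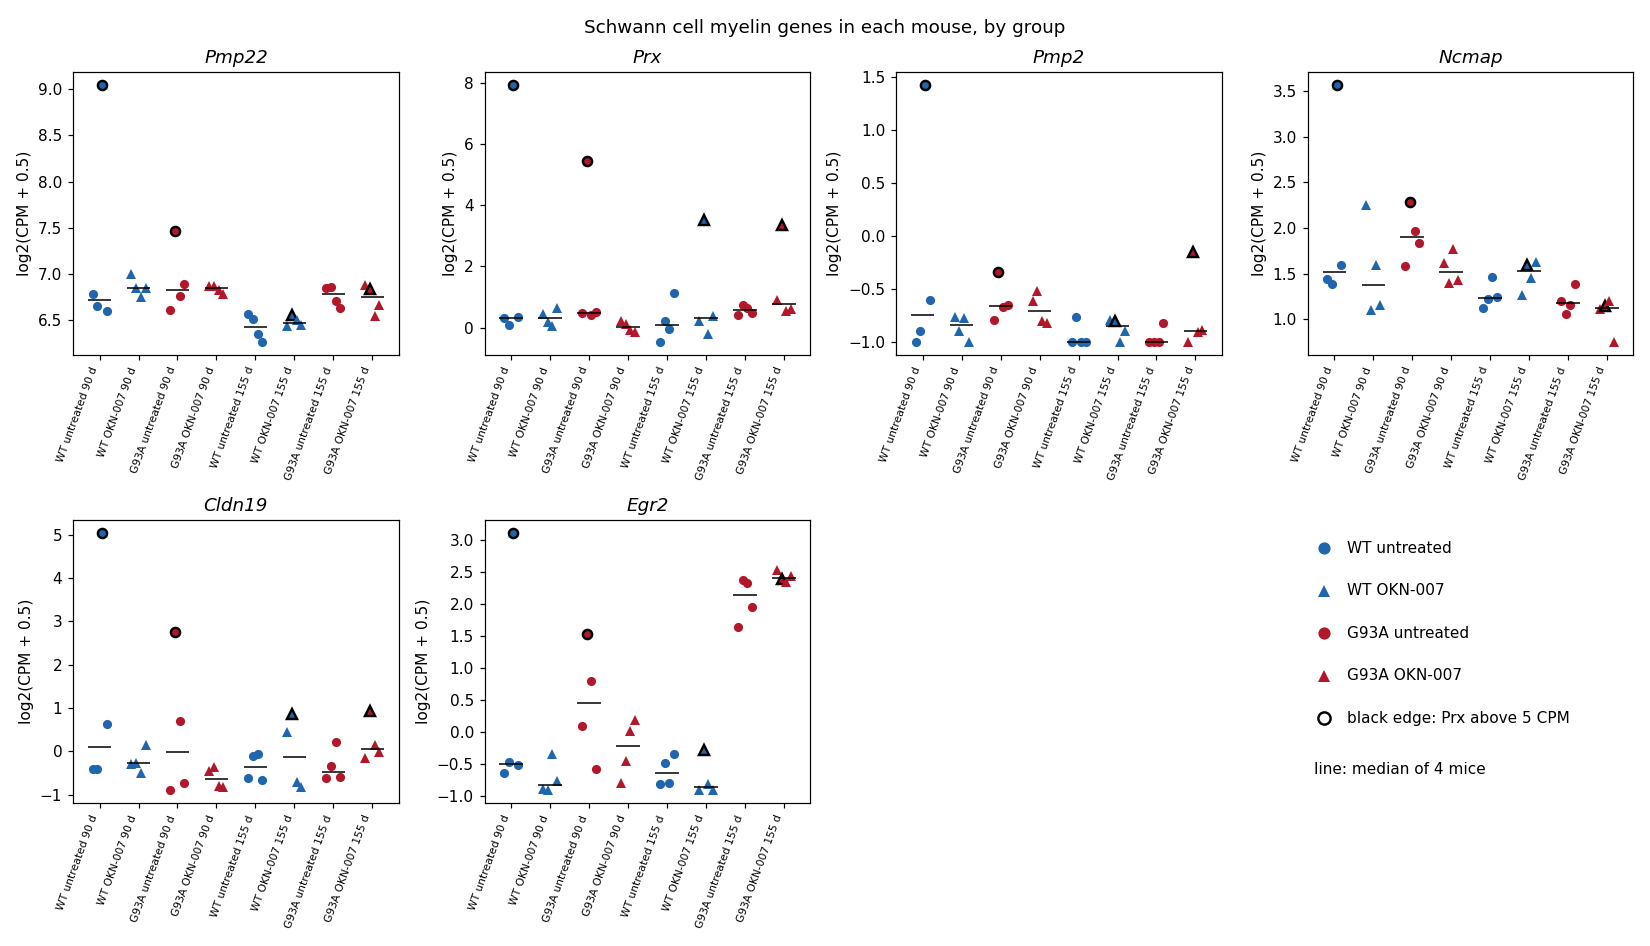
Level of each gene in every mouse, as log2(CPM + 0.5) on the vertical axis, by group on the horizontal axis; circles are untreated and triangles OKN-007 mice, blue WT and red G93A, lines the median of 4 mice, and a black edge marks the 4 libraries with Prx above 5 CPM. Cldn19 is highest in the marked libraries as well, while Egr2 is high in all 8 G93A mice at 155 days, from 2.62 to 5.33 CPM.

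Away from these 4 libraries the genes differed widely in level. Per kilobase of exon, which allows genes to be compared, the median level in WT untreated mice at 155 days was 36.6 CPM for Pmp22, 0.82946 CPM for Ncmap, 0.0995 CPM for Prx, 0.0684 CPM for Cldn19 and 0.0432 CPM for Egr2. Pmp2 was at 0 reads in 3 of these 4 mice. On the same scale Mbp, the gene of myelin basic protein, was at 1185 CPM. Pmp22 lay between 76.6 and 128 CPM in the 28 libraries with little Prx, where Cldn19 lay between 0.0385 and 1.12 CPM and Dhh between 0 and 0.538 CPM. The 6 genes were thus high together in the 2 libraries at 90 days only, and in the 28 libraries Pmp22 was well expressed while Prx, Cldn19 and Dhh were low. Which cells the Pmp22 reads came from in those mice was not tested. In bulk tissue, fewer cells of a type and less RNA per cell cannot be told apart.

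The spread between mice was as uneven. At 90 days the biological coefficient of variation, edgeR's estimate of the spread between mice of a group beyond counting error, was 1.26 for Prx, 1.15 for Cldn19 and 0.977 for Egr2, at the 99.9, 99.8 and 99.6 percentile of all genes tested. Ncmap was at the 95.6 percentile and Pmp22 at the 93.3 percentile. At 155 days Pmp22 varied little, with a coefficient of 0.0922 at the 28 percentile, and Ncmap had 0.139 at the 59 percentile. Egr2 had 0.212 at the 79.2 percentile. Prx and Cldn19 stayed at the 99.8 and 99.5 percentile. Pmp2 had 3 reads or fewer in 25 of 32 mice, did not pass the filter on low counts, and was not tested in any comparison, so that 5 of the 6 genes were tested.

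Egr2 was the gene that separated G93A from WT mice at 155 days. The G93A untreated mice had 2.62, 3.37, 4.56 and 4.72 CPM, from 67 to 114 reads, and the WT untreated mice 0.0745, 0.0765, 0.217 and 0.295 CPM, from 2 to 9 reads. The groups did not overlap. By edgeR's quasi-likelihood test the log2 fold change was 4.48 (SE 0.39, n = 4 and 4, adjusted p = 4.33e-08). Treated G93A mice had 4.59, 4.76, 4.93 and 5.33 CPM, and treated WT mice 0.0353, 0.0388, 0.0747 and 0.324 CPM, again without overlap. The log2 fold change in the treated mice was 5.34 (SE 0.41, adjusted p = 5.65e-09), and averaged over treatment it was 4.91 (SE 0.28, adjusted p = 4.01e-11). The highest treated WT mouse, at 9 reads, was the library with Prx at 10.9 CPM; without the libraries high in Prx the treated fold change was 6.53 (SE 0.45, adjusted p = 2.14e-08). No WT mouse had more than 9 reads at this age, so Egr2 passed the filter on low counts through the G93A mice alone. The WT counts are so low that the size of these fold changes rests on few reads.

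The high level of Egr2 in G93A mice at 155 days was measured without a high level of Prx. In the G93A untreated group Prx was between 0.821 and 1.16 CPM in the mice where Egr2 was between 2.62 and 4.72 CPM. In G93A OKN-007 replicate 14, with Prx at 9.77 CPM, Egr2 was at 4.76 CPM, within the range of the other 3 mice. The microglial genes (6) summed to 460 to 743 CPM in G93A untreated against 116 to 147 CPM in WT untreated mice at 155 days, and the astrocyte genes (4) to 11473 to 14837 CPM against 2711 to 3261 CPM. The part of these cells in the level of Egr2 was not tested.

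Pmp22 was higher in G93A mice at 155 days by a small amount. The levels were 98.7, 104, 115 and 116 CPM in G93A untreated and 76.6, 81.0, 91.2 and 94.2 CPM in WT untreated mice. The groups did not overlap, with a log2 fold change of 0.35 (SE 0.09, adjusted p = 0.00354, edgeR). The treated G93A mice had 93.3, 101, 114 and 118 CPM. The treated WT mice had 86.3, 87.0, 90.0 and 93.6 CPM, so that the highest of them lay just above the lowest G93A mouse. The log2 fold change was 0.29 (SE 0.09, adjusted p = 0.0120, edgeR), and 0.26 (adjusted p = 0.0616) without the libraries high in Prx. Without G93A OKN-007 replicate 13 or 14 alone the adjusted p was 0.0576 and 0.0550. Averaged over treatment the change was 0.32 (SE 0.06, adjusted p = 2.25e-04).

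Genes of position along the cord differed between these groups as well. The 10 caudal Hox genes, which mark the lower end of the cord, summed to 4.43 to 82.6 CPM in G93A untreated and 88.4 to 158 CPM in WT untreated mice at 155 days. In treated mice they summed to 22.8 to 68.6 CPM in G93A and 129 to 173 CPM in WT. With a score of these genes as a covariate the change of Pmp22 in untreated mice was 0.18 (adjusted p = 0.242, edgeR) and that of Egr2 4.60 (adjusted p = 1.59e-06, edgeR). In treated mice these were 0.14 (adjusted p = 0.351, edgeR) and 5.45 (adjusted p = 1.68e-07, edgeR). Averaged over treatment they were 0.16 (adjusted p = 0.184, edgeR) and 5.02 (adjusted p = 1.49e-08, edgeR). In a fit of all 32 mice, which shares the spread of the 90-day libraries, the change of Pmp22 in untreated mice was 0.34 (adjusted p = 0.424, edgeR). It was 0.26 in treated mice (adjusted p = 0.558, edgeR) and 0.30 averaged over treatment (adjusted p = 0.270, edgeR). The part of cord position in these levels was not tested.

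Ncmap, Prx and Cldn19 were not called between genotypes in untreated mice at 155 days, which does not show that their levels were equal. Ncmap had 1.80 ± 0.23 CPM (SD, n = 4) in G93A untreated and 1.91 ± 0.25 CPM in WT untreated mice, a log2 fold change of -0.06 (SE 0.19, adjusted p = 0.821, edgeR). In the treated mice Ncmap was lower in G93A, at 1.18, 1.66, 1.71 and 1.79 CPM against 1.90, 2.24, 2.52 and 2.58 CPM in WT. These groups did not overlap (log2 fold change -0.50, SE 0.18, adjusted p = 0.0343, edgeR). Without the libraries high in Prx the value was -0.52 with an adjusted p of 0.0877, and leaving out 4 of the 8 mice in turn (WT replicates 6, 7 and 8 and G93A replicate 16) each ended the call, with adjusted p from 0.0508 to 0.107. Averaged over treatment Ncmap gave -0.28 (SE 0.13, adjusted p = 0.0747). Prx had 0.985 ± 0.155 CPM in G93A untreated and 0.752 ± 0.639 CPM in WT untreated mice (log2 fold change 0.37, SE 1.04, adjusted p = 0.809). Cldn19 had 0.317 ± 0.234 CPM and 0.293 ± 0.177 CPM (log2 fold change 0.13, SE 0.79, adjusted p = 0.912).

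In counts, 2 of the 5 tested genes were called higher and 0 lower in untreated mice at 155 days, where 39.5% of all 18675 genes tested were called, 21.3% as higher. In treated mice 3 were called, 2 of them higher, where 41.5% of all genes were called, 23.3% as higher. Averaged over treatment 2 were called, both higher, with 54.7% of all genes called and 28.8% as higher. A share of 2 or 3 in 5 is near these backgrounds, so the number of calls is not a result about the gene group. The untreated, treated and averaged comparisons share mice.

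**Figure D2:**
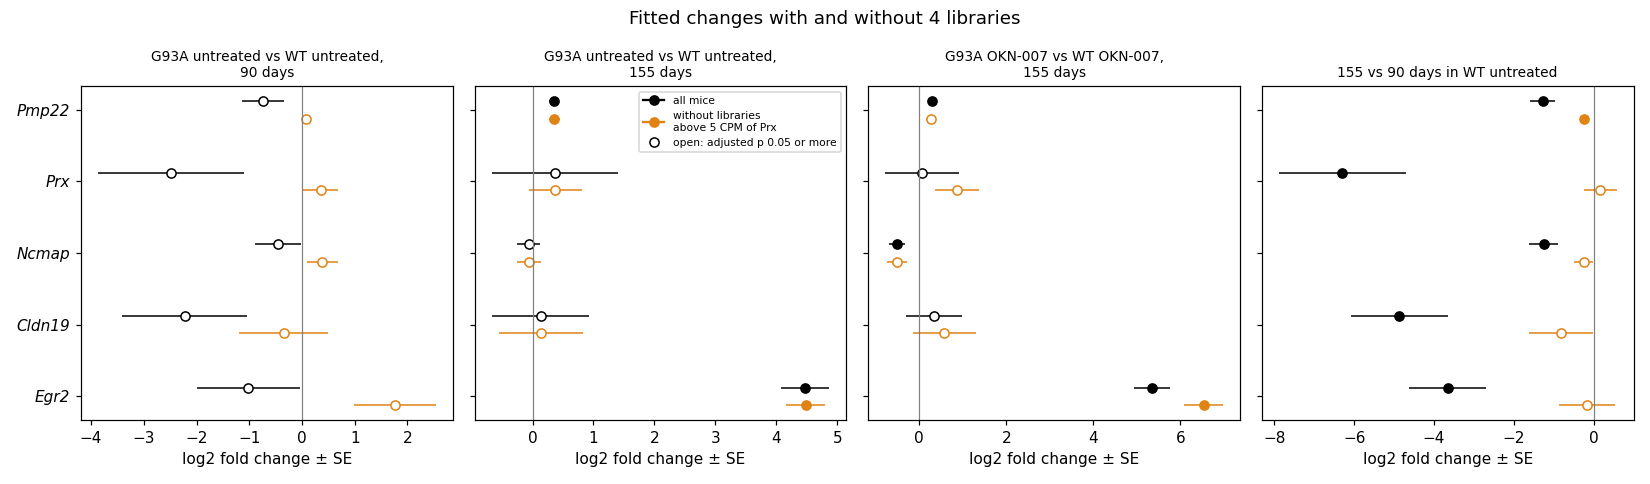
Log2 fold change with its standard error (horizontal axis) for each tested gene in 4 comparisons, from all mice (black) and without the 4 libraries with Prx above 5 CPM (orange); filled points have an adjusted p under 0.05. At 155 days Egr2 is at 4.48 with both sets of mice in the untreated comparison, while at 90 days and between ages most values move towards 0 or across it.

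At 90 days none of the 5 genes was called between the genotypes. In untreated mice 0 of 18899 genes (0%) passed, with 1126 at an unadjusted p under 0.05 and 16 called by DESeq2, which called neither Ncmap nor Egr2 and gave no adjusted p for Pmp22, Prx and Cldn19. In treated mice 0 genes (0%) passed, with 747 at an unadjusted p under 0.05 and 3 called by DESeq2, and averaged over treatment 0.0265% passed. The means of the untreated groups are set by the 2 libraries high in Prx. Prx, for example, was at 0.556, 0.737, 0.760 and 245 CPM in WT and at 0.817, 0.885, 0.929 and 42.8 CPM in G93A mice. The log2 fold changes in untreated mice, -2.48 for Prx, -2.23 for Cldn19, -1.01 for Egr2, -0.74 for Pmp22 and -0.46 for Ncmap, became 0.35, -0.35, 1.76, 0.08 and 0.38 without those libraries. With or without them, every adjusted p was 0.828 or more.

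Egr2 at 90 days is given by its values, since no test passed. The G93A untreated mice had 0.172, 0.577, 1.25 and 2.41 CPM, of which the last is the library high in Prx, and the WT untreated mice 0.147, 0.200, 0.222 and 8.15 CPM, of which the last is again such a library. The G93A treated mice had 0.0774, 0.236, 0.517 and 0.641 CPM, and the WT treated mice 0.0374, 0.0450, 0.0933 and 0.294 CPM. The genotypes overlapped in both. All 8 G93A mice at 155 days were above the highest G93A mouse at 90 days, at 2.41 CPM.

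No effect of OKN-007 on these genes was called at either age. In the 4 comparisons of treated with untreated mice (G93A and WT, at 90 and at 155 days) and in the 2 tests of the genotype by treatment interaction, 0 of the 5 genes and 0% of all genes were called by edgeR. At an unadjusted p under 0.05 there were 1050 genes in G93A and 769 in WT mice at 90 days, and 755 and 549 at 155 days, with 531 and 437 for the interactions; DESeq2 called 2 genes in WT at 155 days and 2 for the interaction at 155 days, and 0 in the others. Egr2 at 155 days had 4.90 ± 0.31 CPM (SD, n = 4) in G93A OKN-007 and 3.82 ± 0.998 CPM in G93A untreated mice, which overlap (log2 fold change 0.37, SE 0.27, adjusted p = 0.99956, edgeR). Pmp22 had 106.5 ± 11.3 CPM and 108 ± 8.50 CPM in the same groups. In WT mice at 90 days the fitted differences were large, at -6.32 for Prx on the log2 scale (SE 1.87), -4.53 for Cldn19 (SE 1.43) and -4.17 for Egr2 (SE 1.28), and did not pass (adjusted p = 0.993 for each). They rest on WT untreated replicate 3: without the libraries high in Prx they were 0.17, -0.51 and -0.68. In G93A mice at 90 days Prx was at 0.405, 0.443, 0.591 and 0.658 CPM in treated and 0.817, 0.885, 0.929 and 42.8 CPM in untreated mice. These groups did not overlap, but the difference did not pass (log2 fold change -4.39, SE 1.999, adjusted p = 0.837, edgeR), and without the libraries high in Prx it was -0.74 (SE 0.31).

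Between ages, in WT untreated mice, all 5 tested genes were called lower at 155 than at 90 days, where 24.9% of 19829 genes were called and 9.61% called lower. The log2 fold changes were -6.30 for Prx (SE 1.59, adjusted p = 0.00453), -4.87 for Cldn19 (SE 1.22, adjusted p = 0.00431), -3.66 for Egr2 (SE 0.96, adjusted p = 0.00624), -1.28 for Pmp22 (SE 0.31, adjusted p = 0.00366) and -1.26 for Ncmap (SE 0.36, adjusted p = 0.0118). They turn on 1 mouse: without WT untreated 90 days replicate 3, 0 of the 5 were called. Without all 4 libraries high in Prx only Pmp22 was, with -0.25 (SE 0.09, adjusted p = 0.0483), and Prx was 0.16 in the other direction. Pmp22 was at 96.4, 100, 110 and 529 CPM at 90 days and 76.6 to 94.2 CPM at 155 days in these mice, so the ages did not overlap. Central myelin genes were lower at 155 days in the same mice, 6 of 7 being called, among them Mbp (-0.71, adjusted p = 8.93e-05, edgeR) and Mobp (-0.65, adjusted p = 1.93e-04). The 7 summed to 23896 to 27573 CPM at 90 days and 14872 to 17434 CPM at 155 days. Of the 4 astrocyte genes 1, Gfap, was lower (-0.74, adjusted p = 2.73e-04). The part of these cells in the level of Pmp22 was not tested.

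In G93A untreated mice 0 of the 5 genes were called between ages (33.7% of all genes were). Egr2 was higher at 155 days by 1.84 (SE 0.75, adjusted p = 0.0586, edgeR). Without the libraries high in Prx the change was 2.55 (SE 0.47, adjusted p = 1.42e-04, edgeR), and without G93A untreated 90 days replicate 10 alone 2.53 (adjusted p = 0.0260). That replicate was the highest of its group in Egr2, at 2.41 CPM, so leaving it out raises the change by itself. Ncmap had 2.50, 3.06, 3.40 and 4.39 CPM at 90 days and 1.57, 1.72, 1.80 and 2.12 CPM at 155 days, with no overlap, a log2 fold change of -0.88 (SE 0.37, adjusted p = 0.0675) and of -0.72 (SE 0.24, adjusted p = 0.0256) without those libraries.

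The difference between ages of the G93A change was tested in untreated mice, where 21.2% of all genes passed. Of the 5 genes 1 did, Egr2, whose log2 fold change between genotypes was larger at 155 than at 90 days by 5.50 (SE 1.23, adjusted p = 0.00147, edgeR). Without the 4 libraries high in Prx the difference was 2.72 (SE 0.88, adjusted p = 0.0338), and without WT untreated 90 days replicate 3 alone it was 2.01 (adjusted p = 0.165). For Pmp22 it was 1.08 (SE 0.44, adjusted p = 0.0785), and 0.26 (adjusted p = 0.168) without the 4 libraries.

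Across all 8 groups the order of the medians shows where each gene's groups part. For Egr2 it ran from G93A OKN-007 (4.84 CPM) and G93A untreated (3.96 CPM) at 155 days, which overlapped, down to G93A untreated at 90 days (0.912 CPM); the step from 155 to 90 days was the only one between neighbours without overlap. For Pmp22 the 6 highest medians ran from 115 CPM in WT OKN-007 to 105 CPM in WT untreated mice, both at 90 days. Each overlapped with the next of the 6. The 2 WT groups at 155 days followed at 88.5 and 86.1 CPM, below every mouse of the neighbouring WT untreated group at 90 days. They did overlap with G93A OKN-007 at 155 days, whose lowest mouse was at 93.3 CPM, against highest WT mice at 93.6 and 94.2 CPM. For Ncmap the medians ran from 3.23 CPM in G93A untreated at 90 days to 1.68 CPM in G93A OKN-007 at 155 days, for Prx from 1.20 to 0.517 CPM and for Cldn19 from 0.650 to 0.153 CPM, and every neighbour in these orders overlapped. Pmp2 had group medians between 0 and 0.133 CPM, under the limit of 0.152 CPM that 3 reads set.

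Within groups the genes moved with each other through the libraries set apart. Of 15 pairs among the 6 genes, after the group mean was subtracted, 13 had an adjusted p under 0.05 by a permutation test within groups (Pearson, 32 mice), and 9 by Spearman's rank correlation. Leaving out the 2 mice farthest from the median of the gene on the horizontal axis left 1 pair, Pmp2 with Cldn19 (r = 0.571, permutation test, adjusted p = 0.0288). Because the 4 libraries form a cluster of their own, r is given within the other 28 mice, where 0 of the 15 pairs passed. There the values ran from -0.29 for Pmp22 with Egr2 to 0.42 for Pmp2 with Cldn19 (rho = 0.397, adjusted p = 0.871 for r by permutation), with a median of 0.0195. Pmp2 had 3 reads or fewer in 25 of the 32 mice, Egr2 in 9 and Cldn19 in 6, which limits what these correlations can show.

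**Figure D3:**
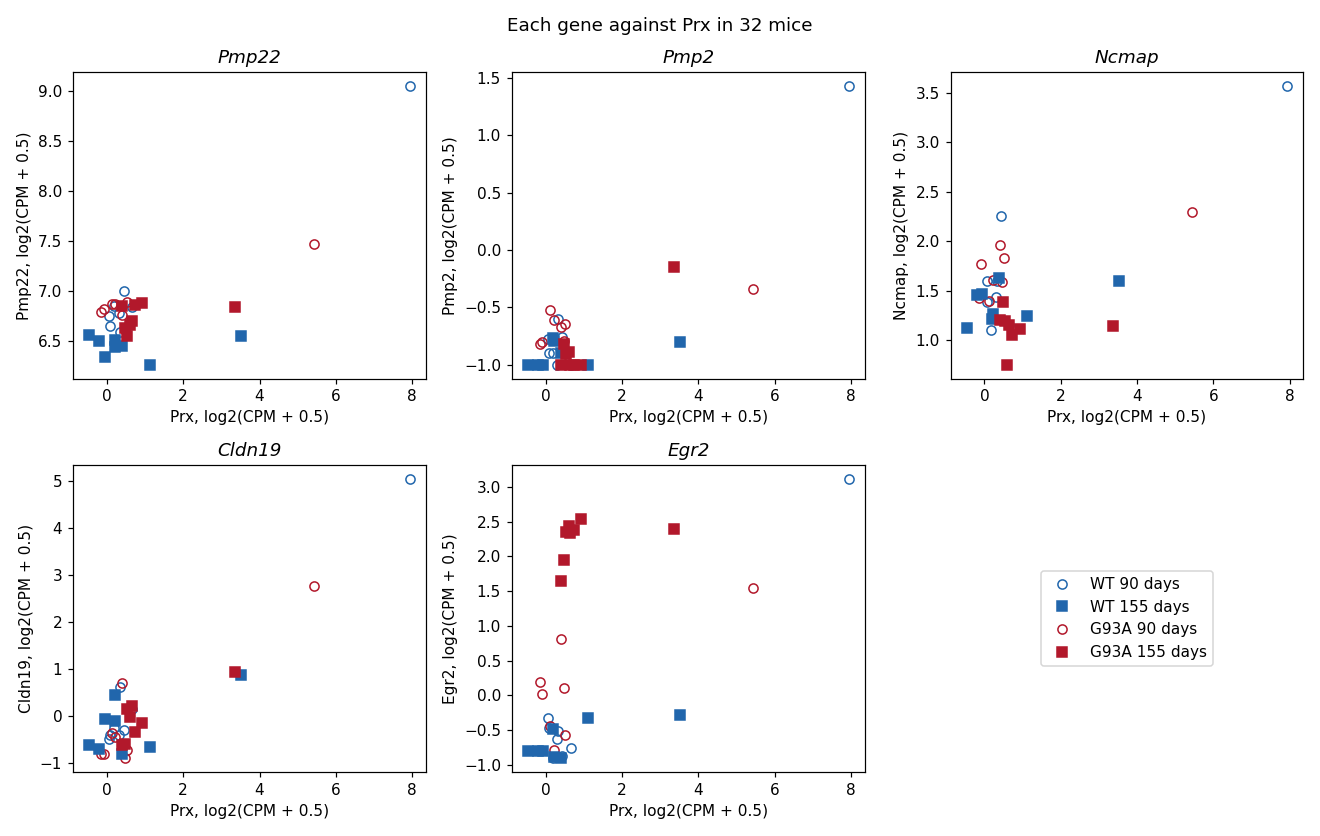
Each of the other 5 genes (vertical axis) against Prx (horizontal axis) in 32 mice, both as log2(CPM + 0.5); open circles are 90-day and filled squares 155-day mice, blue WT and red G93A. Cldn19 is highest in the 4 libraries set apart, while in the panel of Egr2 the 8 G93A mice at 155 days, 7 of them at low Prx, stand above all others except WT untreated 90 days replicate 3.

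The genes most like each member were searched among the 19827 genes of the fit of all mice that are reported here, by Pearson's r of the levels after subtracting group means. For Prx they were Ogn (r = 0.958 over 32 mice), Plekha4 (0.952) and Mfap5 (0.934), and over the 28 mice below 5 CPM of Prx the values were 0.251, 0.302 and -0.0216. For Pmp22 they were Sptbn5 (0.935), Dhh (0.935) and Mlip (0.912), at -0.137, 0.0896 and 0.0124 over the 28 mice. For Cldn19 they were Plekha4 (0.935), Cdh1 (0.928) and Ogn (0.916), at 0.400, 0.489 and 0.155 over the 28 mice. For Egr2 they were Plekha4 (0.916), Ccl11 (0.893) and Cdh1 (0.892), at 0.615, 0.406 and 0.352. Cdh1 encodes E-cadherin, which joins the turns of noncompact Schwann cell myelin. For Ncmap they were Sbspon (0.862), Pmp22 (0.839) and Hspg2 (0.834), at 0.493, 0.1025 and 0.470, and for Pmp2 Sptbn5 (0.921), Pmp22 (0.897) and Ogn (0.891), at 0.0701, -0.0622 and 0.374. Every value was lower over the 28 mice, by an amount that differed between genes. The genes were picked for the highest r over all 32 mice, so a fall without the 4 libraries follows largely from that choice.

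The counts of the gene lists at 155 days are to be read against the 39.5% of all genes called in untreated mice (21.3% higher) and the 41.5% called in treated mice (23.3% higher). Of the 6 other genes of myelinating Schwann cells 2 were higher and 0 lower in untreated G93A mice, with a median log2 fold change of 0.28 against 0.00 over all genes. Gldn, which encodes gliomedin of the node of Ranvier, was at 1.81 ± 0.48 CPM (SD, n = 4) against 1.05 ± 0.15 CPM in WT (log2 fold change 0.80, SE 0.24, adjusted p = 0.0115, edgeR). Drp2, the dystrophin-related partner of periaxin, was at 67.4 ± 10.8 CPM against 51.6 ± 6.84 CPM (0.40, SE 0.11, adjusted p = 0.00664). In treated mice the same 2 genes were called higher, Gldn with 0.98 and Drp2 with 0.33; without the libraries high in Prx Drp2 gave 0.23 (adjusted p = 0.183). Mal, Gjb1, Pllp and Drp2 are also expressed by oligodendrocytes.

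Signals and transcription factors of Schwann cell myelination counted 7 higher and 1 lower of 16 in untreated mice at 155 days (median 0.28), where 39.5% of all genes were called and 21.3% called higher. In treated mice 12 were higher and 1 lower (median 0.52, against 0.02 over all genes), where 41.5% were called and 23.3% called higher. The largest changes in untreated mice were in Adgrg6, the adhesion receptor that starts Egr2 expression in Schwann cells, at 13.5 ± 2.23 CPM against 4.95 ± 1.69 CPM (log2 fold change 1.47, SE 0.21, adjusted p = 1.66e-05, edgeR). Erbb2, a subunit of the neuregulin receptor, gave 0.94 (adjusted p = 5.49e-04), Jun, a transcription factor of injured Schwann cells and neurons, 0.91 (adjusted p = 1.39e-05), and Sox2, of immature glia, 0.78 (adjusted p = 0.00221). The gene that was lower, named after its values were seen, was Nrg1, the axonal ligand of that receptor, at 15.6 ± 1.86 CPM against 26.5 ± 4.00 CPM (-0.75, SE 0.12, adjusted p = 9.21e-05). Sox10, which acts with Egr2, gave 0.26 in untreated mice (adjusted p = 0.167), and is also a factor of oligodendrocytes. The list holds factors of injured and immature cells as well, so its counts are not a measure of myelination. The astrocyte and microglial genes were also higher in G93A mice at this age, treated and untreated. The part of those cells in these levels was not tested.

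Genes of non-myelinating and repair Schwann cells counted 1 higher and 2 lower of 8 in untreated mice at 155 days (median 0.37), a share near the 39.5% of all genes. Runx2 was higher (0.46, adjusted p = 0.0459), and Shh (-0.79, adjusted p = 2.41e-04) and Scn7a (-0.76, adjusted p = 0.0187) were lower. Shh is also made by motor neurons, whose 6 genes counted 0 higher and 5 lower. Among 6 genes of the periaxin, dystroglycan and laminin receptor complexes 3 were higher and 2 lower (median 0.35), where 21.3% of all genes were called higher. The integrin subunits Itga6 (0.89, adjusted p = 5.98e-07) and Itgb1 (0.75, adjusted p = 6.87e-08) and dystroglycan, Dag1 (0.37, adjusted p = 0.00371), were higher. Itgb4, the partner of Itga6 in myelinating Schwann cells, was lower (-0.43, SE 0.12, adjusted p = 0.00687). Utrn, named after its values were seen, was lower as well (-0.31, adjusted p = 0.0352).

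Of the 7 central myelin genes 2 were called in untreated mice at 155 days, where 39.5% of all genes were, both higher: Cldn11 (0.90, SE 0.09, adjusted p = 1.64e-07) and Mag (0.25, adjusted p = 0.00973). The median over the 7 was 0.08. Of the other lists, the fibroblast and meningeal genes counted 2 higher (Col1a1 and Col1a2) and 0 lower of 7 tested, the sensory ganglion genes 1 higher (Avil) of 2 tested, the skeletal muscle genes 0 of 3, the astrocyte genes 4 higher of 4, the microglial genes 6 higher of 6, and the caudal Hox genes 0 higher and 5 lower of 9.

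**Figure D4:**
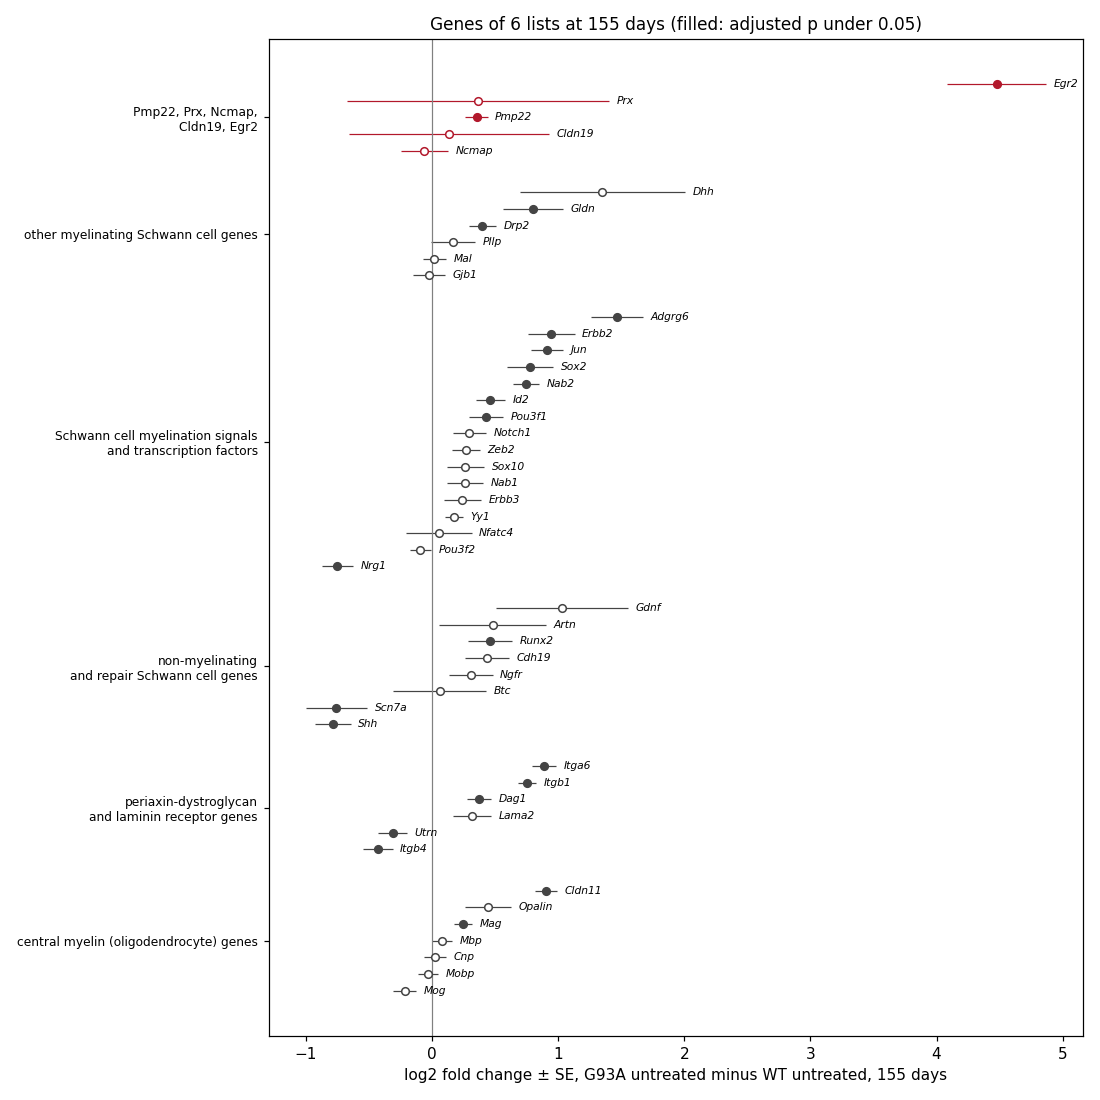
Log2 fold change with its standard error (horizontal axis), G93A untreated minus WT untreated mice at 155 days, for the tested genes of 6 lists (vertical axis); filled points have an adjusted p under 0.05. Egr2, at 4.48, lies beyond every other gene shown, and the lowest, Shh, is at -0.79.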

How the data were processed

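Spinal cord RNA of 32 mice was analysed as the raw counts per gene that the authors deposited, which are not normalized. The study's methods name Trimmomatic, STAR, HTSeq and GENCODE M10 (GRCm38), whereas the submitters' processing notes name FastQC, STAR, featureCounts, edgeR and the builds GRCm39, mm39 and hg38. Of the gene IDs, 1306 are later than the last of GENCODE M21, so that the annotation is newer than M10. Symbols and positions came from GENCODE M21 by gene ID, for 41203 IDs (96.89%). The table has 0 columns of other samples.

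Groups of an age were fitted together (16 mice), and ages in a fit of all 32 mice, with edgeR 4.0.16 in R 4.3.3: filterByExpr, TMM, glmQLFit and glmQLFTest, two-sided, Benjamini-Hochberg adjustment over all genes tested, called at an adjusted p under 0.05. SEs were taken from the F statistic. Nothing in the labels says more than that mice are separate samples; p-values measure the spread between them. Correlations were tested by 100000 permutations within groups. The scripts were tested on simulated data. The gene group and the lists were chosen with earlier results of these data known. Named genes are the 6, the 3 most like each, and up to 4 called genes of a list with the largest change. Some genes of the lists, and the results that need them, are not reported here. Alternatives were DESeq2 1.42.0, RLE factors, other filters on low values (a minimum of 10 counts per mouse, or none), a fit restricted to the groups compared, a fit of 32 mice, a caudal Hox covariate, a replicate block, and leaving out each mouse; leaving out the 4 libraries above 5 CPM of Prx was chosen after seeing the data. Replicates were compared and none was a duplicate.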

Additional observations from a re-analysis of the deposited data

Results flagged for a closer look

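Of the 48 combinations of 6 genes and 8 groups of 4 mice, 13 had a mouse whose gap to the next one exceeded Dixon's 95% limit. Normally distributed values would give about 2.4. Levels of genes with few reads are not so distributed, so the 13 are a description and not a test against chance. In 11 of the 13 the mouse was one of the 4 libraries with Prx above 5 CPM, in 4 of them for Prx itself, which set these libraries apart. WT untreated 90 days replicate 3 was such a mouse for all 6 genes, with Pmp22 at 529 CPM, Prx at 245 CPM, Cldn19 at 32.3 CPM, Ncmap at 11.4 CPM, Egr2 at 8.15 CPM and Pmp2 at 2.20 CPM. G93A untreated 90 days replicate 10 was one for Prx (42.8 CPM). WT OKN-007 155 days replicate 6 was one for Prx (10.9 CPM) and Egr2 (0.324 CPM), and G93A OKN-007 155 days replicate 14 for Prx (9.77 CPM) and Pmp2 (0.400 CPM). The remaining 2 were Pmp2 at 0.0868 CPM in WT untreated 155 days replicate 2 and at 0.0661 CPM in G93A untreated 155 days replicate 12, each 2 reads where the other 3 mice had 0.

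The change of Egr2 between genotypes in untreated mice differed between the ages, by 5.50 on the log2 scale in the test of that difference (adjusted p = 0.00147, edgeR), from -1.01 at 90 days to 4.48 at 155 days. Without WT untreated 90 days replicate 3 the difference was 2.01 and did not pass (adjusted p = 0.165), and the change at 90 days was 2.48.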

How the results depend on the processing

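Calls among the 5 tested genes moved with some settings. With at least 10 counts in every mouse, which leaves out low genes such as Egr2, 1 gene was called in place of 2 at 155 days in untreated mice and in the average over treatment, 2 in place of 5 between ages in WT and 0 in place of 1 for the difference between ages. With the caudal Hox covariate 1 was called in each genotype comparison at 155 days (2, 3 and 2 without it), 3 between ages in WT and 2 in place of 0 between ages in G93A mice. In a fit of all 32 mice 1 was called in each of those genotype comparisons. Without the 4 libraries above 5 CPM of Prx 1 was called in treated mice at 155 days, 1 between ages in WT and 2 in G93A mice. With no filter 3 were called for OKN-007 in WT at 90 days and 1 between ages in G93A mice, and with DESeq2 1 in the latter. The cause of these moves was not tested. Same-numbered mice of the 2 ages were different animals, and the numbers did not pair them (r from -0.22 to 0.21 over 16 pairs, 3 over 0.1); a replicate block gave 3 calls between ages in WT and 2 in G93A mice. Leaving out 1 mouse gave 0 (without WT untreated 90 days replicate 3) to 5 calls between ages in WT, 0 to 1 in G93A mice and 0 to 3 for the difference between ages. Of the 13 correlated pairs of 15, 1 was left without the 2 farthest mice and 0 without the 4 libraries.

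Directions turned in untreated mice at 90 days. With the Hox covariate Prx was 1.31 and Cldn19 0.20. Without the 4 libraries Pmp22 was 0.075, Prx 0.35, Ncmap 0.38 and Egr2 1.76. Leaving out 1 mouse gave -0.97 to 0.29 for Pmp22, -6.13 to 4.03 for Prx, -0.70 to 0.54 for Ncmap, -4.40 to 1.82 for Cldn19 and -1.74 to 2.48 for Egr2, each positive without WT replicate 3. Prx for OKN-007 in WT at 90 days was 0.17 without the 4 libraries and -6.74 to 0.17 leaving out 1 mouse, and between ages in WT 0.16 and -7.13 to 0.17. At 155 days Ncmap in untreated mice was 0.039 with the Hox covariate and -0.15 to 0.028 leaving out 1 mouse, and Cldn19 -0.48 to 0.45.

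Over all genes, the untreated genotype comparison at 90 days gave 16 calls with DESeq2, 39 with no filter and 1 in the fit of all mice, the treated one 3, 24 and, with only the compared groups, 3, and the average 66, 110 and 21 in place of 5 (2 with at least 10 counts). At 155 days the Hox covariate gave 4555 in place of 7378 calls and, averaged, 6357 in place of 10211. Without a filter OKN-007 gave 8 calls in G93A and 14 in WT at 90 days, 17 and 10 at 155 days, and 3 and 8 for the interactions. Few reads limit Pmp2, Cldn19 and, in WT mice, Egr2.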
